A study of Homo sapiens with 8 samples.

Results

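The genes described here are the aminoacyl-tRNA synthetases other than the tryptophanyl enzyme, together with AIMP1 and AIMP2, scaffold proteins that hold several of these enzymes in a complex. They were taken by gene symbol from a table of expression values, and all 36 listed symbols were found among its 26372 genes. RNA was sequenced from the established human neuroblastoma line BE(2)-M17, in 4 untreated libraries and 4 libraries from cells given interferon-γ (IFN-γ) at 10 ng/ml for 24 h. No other agent or genetic change is named for either group, and all 8 libraries come from the same line, hence from the tumour of 1 person. The comparison asks which members differ between IFN-γ-treated and untreated cells. Values are FPKM, fragments scaled for transcript length and for the fragments mapped in the library, a relative level that allows genes of different length to be compared. Whether replicates were grown as separate cultures is not in the labels, and the p-values therefore reflect the spread between libraries, which may be technical.

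Each aminoacyl-tRNA synthetase joins 1 kind of amino acid to its transfer RNAs, the step that sets which amino acid a codon stands for. Human cells have a cytosolic set and a mitochondrial set, mostly encoded by separate genes, the mitochondrial ones usually marked by the ending 2; KARS and GARS each serve both places. IFN-γ acts through its receptor and receptor-bound kinases on genes that carry gamma-activated sites in their regulatory DNA. WARS, the tryptophanyl enzyme gene, is a classical IFN-γ target, and EPRS, the glutamyl-prolyl enzyme, is known to leave the multi-synthetase complex after IFN-γ and join the GAIT complex, which silences translation of some mRNAs.

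Sequence around the transcription start is shown for members that rose with IFN-γ: KARS, RARS and LARS2, the largest rises, and CARS and TARS, which hold matches to searched motifs. Windows of 300 bases, from 250 before to 50 after the start, came from RefSeq (GRCh38.p14) and matched 30 of the 36 members. AARS2, DARS, LARS, VARS, VARS2 and YARS had no entry. All sequences read 5′ to 3′ on the strand of the gene, and capitals mark a motif match. The KARS stretch is chr16:75647680-75647785 (minus strand), the RARS stretch chr5:168486221-168486444 (plus strand) and the LARS2 stretch chr3:45388326-45388505 (plus strand). Each is upstream of the RefSeq start and outside annotated exons. Gene positions given below come from GENCODE instead, and its starts can differ from those of RefSeq. The KARS stretch lies inside the GENCODE gene, while the RARS and LARS2 stretches end just before theirs. The CARS site is chr11:3057399-3057423 (minus strand), and the TARS sites are chr5:33440830-33440854 and chr5:33440958-33440982 (plus strand). These sites also lie inside the GENCODE genes.
KARS upstream: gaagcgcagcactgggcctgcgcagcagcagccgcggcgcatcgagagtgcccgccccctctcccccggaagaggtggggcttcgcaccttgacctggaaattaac
RARS upstream: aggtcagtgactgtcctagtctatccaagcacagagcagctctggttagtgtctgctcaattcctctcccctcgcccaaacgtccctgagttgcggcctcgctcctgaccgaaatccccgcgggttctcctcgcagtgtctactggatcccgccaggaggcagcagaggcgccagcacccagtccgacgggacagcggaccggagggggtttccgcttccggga
LARS2 upstream: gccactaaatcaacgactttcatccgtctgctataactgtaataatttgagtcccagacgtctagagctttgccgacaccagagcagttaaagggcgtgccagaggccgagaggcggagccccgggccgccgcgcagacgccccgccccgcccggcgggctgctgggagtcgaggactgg
CARS, gamma-activated site: gcatcagaTTCTAGGAAgtgtctgt
TARS, gamma-activated site: gacctgatTTCCTAGAAgggctctg
TARS, CARE: gcctttcgATTGCATCAgctggtcc

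Both strands of each window were searched for the gamma-activated site TTCNNNGAA, for the interferon-stimulated response element core (GAAA and GAAA separated by any 2 bases), and for the C/EBP-ATF response element (CARE) TGATGNAAT, at which ATF4 and its partners bind. The gamma-activated letters were present in 3 of 30 member windows (10.0%), those of CARS, TARS and PARS2, against 7.66% of 35116 windows of the same length. The response element core was present in that of EARS2 (3.3% of member windows against 3.57% of all). CARE was present in that of TARS (3.3% against 0.99%), on the reverse strand. A match is a run of letters and not a measured binding site. None of the motifs was found in the windows of KARS, RARS and LARS2, the 3 members with the largest rises, which says only that these letters are not in those windows.

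The libraries held about 13.9 to 20.3 M fragments, estimated from the steps between low FPKM values. The sample descriptions give a target of 100 M reads for each library, and the gap to the estimate was not examined. All 6 interferon response genes checked rose, among them IRF1, an interferon-induced transcription factor, from 0.584 ± 0.0404 to 125 ± 2.14 FPKM (SD, n = 4). Of the neuroblastoma and sympathetic markers, 9 of 10 were tested and 3 rose, ELAVL4 by 1.68-fold, CHGA by 1.33-fold and PHOX2A by 1.29-fold (33.3% called). MYCN, at 2003 and 1817 FPKM, and HAND2, at 307 and 297 FPKM, were lower in every treated library and not called. The part of these markers in the results below was not tested. Their summed level was 3114 to 3196 FPKM in untreated and 3102 to 3376 FPKM in treated libraries. The 5 blood markers and the 5 endothelial and glial markers were below 1 FPKM in every library, as were 4 of the 5 epithelial markers. Fibroblast markers summed to 166 to 176 FPKM in untreated and 184 to 239 FPKM in treated libraries, with LUM and PDGFRB higher, COL1A1 lower, DCN not called and COL3A1 below 1 FPKM; their part in the results below was not tested. IFN-γ replicate 4 stood apart for these genes: it was the highest of the 4 treated libraries for 25 of the 36 members and the lowest for 3, against 36.9% and 37.3% of all genes tested.

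Members changed in both directions with IFN-γ, and most were not called. With limma on log2(FPKM + 0.1), 9 of 36 members passed the threshold of an adjusted p of 0.05 (25.0%), against 22.3% of the 13598 genes tested. KARS, LARS2, RARS, CARS and TARS rose, 13.9% of the members against 13.3% of all genes. AARS2, RARS2, NARS2 and VARS fell, 11.1% against 9.05%, and all 4 had the opposite sign when the values were rescaled so that every library had the same total (TPM). That rescaling moved the median of all genes by 0.79 on the log2 scale, and relative to that shift AARS2 was at -0.50, NARS2 and RARS2 at -0.16 and VARS at -0.11. The median log2 change was -0.02 over the members and -0.0047 over all genes tested. The groups of 4 did not overlap for 11 members (30.6%, against 28.2% of all genes), 6 of them higher (15.4% of all genes) and 5 lower (12.9% of all genes). Both shares were near those of all genes. In these bulk samples, a change in RNA per cell and a change in the share of cells that make it cannot be told apart.

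**Figure D1:**
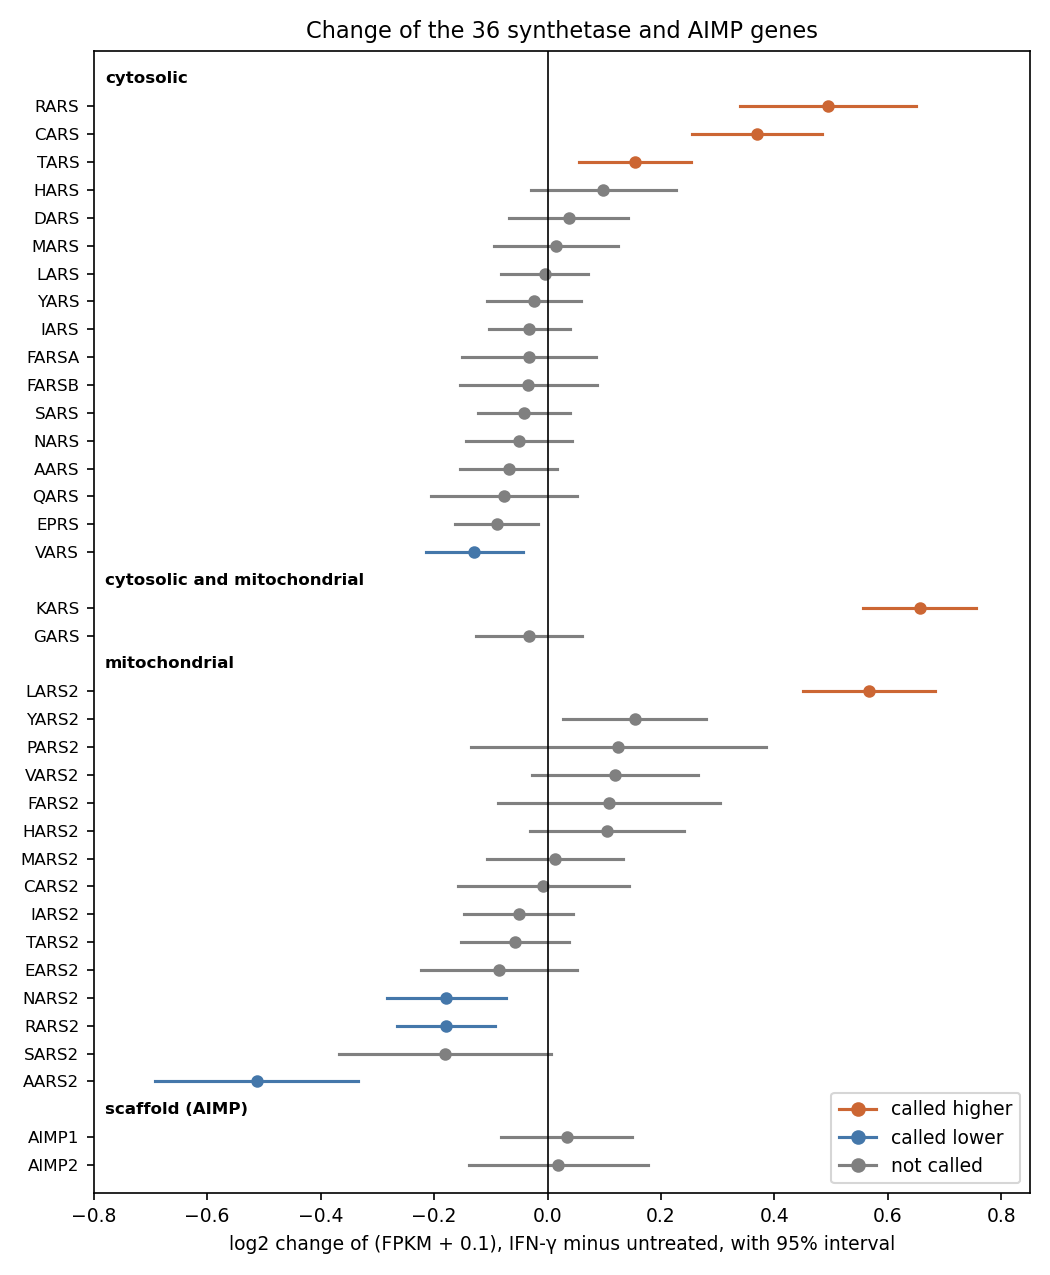
Log2 change of each of the 36 members, IFN-γ minus untreated on log2(FPKM + 0.1), with 95% intervals and members grouped by compartment. KARS at 0.66 is the highest and AARS2 at -0.51 the lowest, and the 4 that fell have the opposite sign in TPM.

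The split of the calls by direction over all genes depended on the scaling. It was 1809 higher and 1230 lower in the deposited values, 1470 and 2564 after quantile normalization, 9442 and 20 in TPM, and 1143 and 1778 in TPM without short RNA genes. Among the members it was 5 and 4, then 4 and 14, 32 and 0, and 4 and 11. KARS, RARS, CARS and LARS2 rose in each of these. AARS2, RARS2, NARS2 and VARS were called lower in all of these but TPM. The median log2 change of all genes was -0.07 after quantile normalization and -0.10 in TPM without short RNA genes.

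Among the enzymes that serve both compartments, KARS, the lysyl-tRNA synthetase and a subunit of the multi-synthetase complex, had the largest rise of any member. The gene lies at chr16:75627474-75648643 on the minus strand (GRCh38, GENCODE 29). Its level was 74.87, 79.96, 81.48 and 78.23 FPKM in untreated replicates 1 to 4 and 121.7, 120.5, 121.2 and 132.5 FPKM in IFN-γ replicates 1 to 4. All treated libraries were above all untreated ones, and replicate 4 was the highest. The mean rose from 78.6 ± 2.84 to 124 ± 5.70 FPKM (SD, n = 4), 1.58-fold, or 0.66 on the log2 scale (SE 0.04, limma adjusted p = 2.1e-06). It rose from the fourth place among the members to the first. Its head-to-head neighbour TERF2IP, a telomere-binding protein gene whose annotation overlaps it, was at 49.4 and 48.2 FPKM and was not called. GARS, the glycyl-tRNA synthetase, was at 69.0 ± 1.58 and 67.5 ± 3.19 FPKM (SD, n = 4) and was not called.

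**Figure D2:**
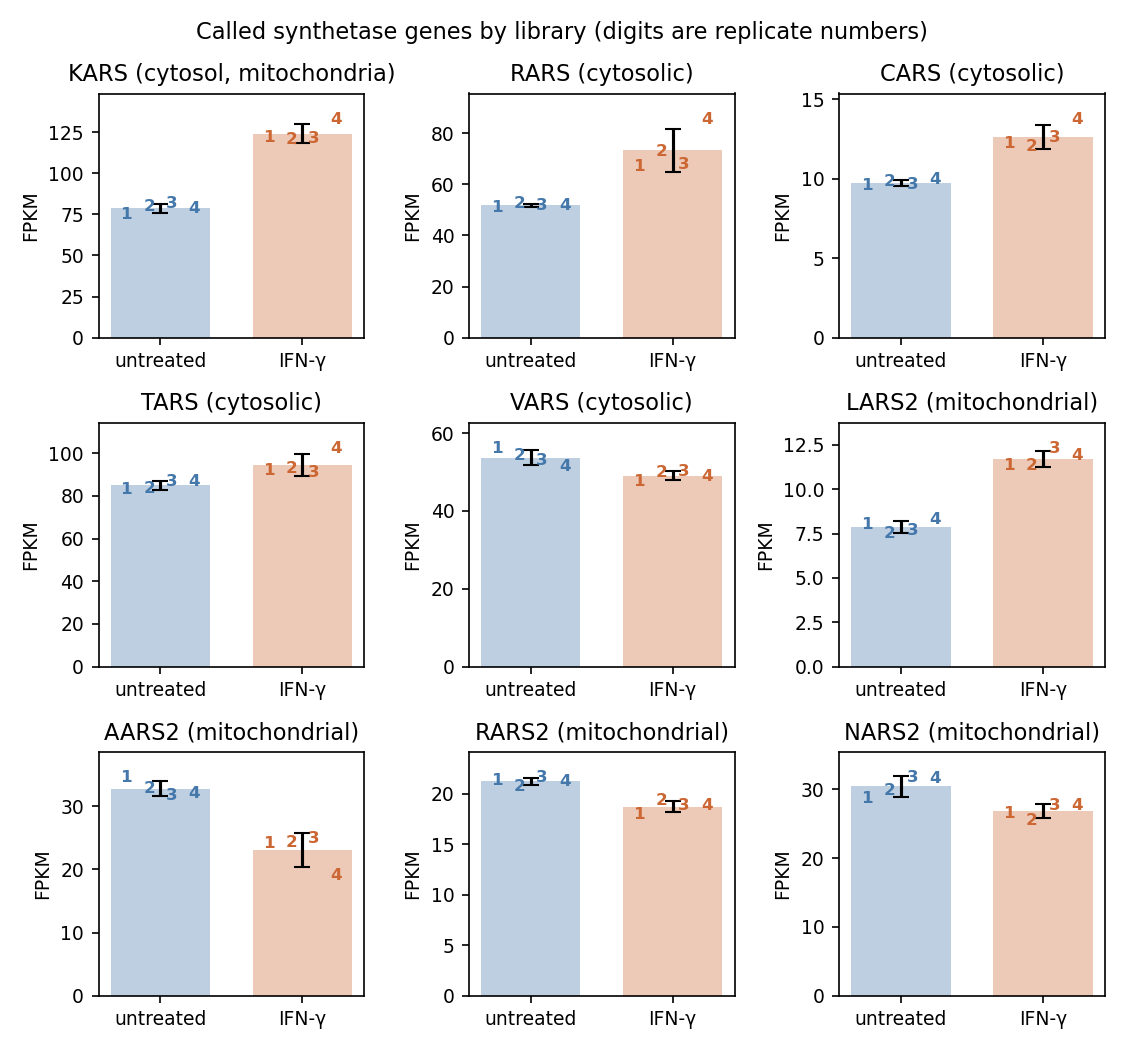
FPKM in each library for the 9 members that passed the threshold, with bars for the group means, error bars for the SD (n = 4) and digits for the replicates at their values. In all 9 the untreated and IFN-γ libraries do not overlap, and the 4 lower members have the opposite sign in TPM.

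Of the 17 cytosolic members, 3 rose and 1 fell (23.5%, near the 22.3% of all genes), and the fall had the opposite sign in TPM. RARS, the arginyl-tRNA synthetase of the complex (chr5:168486445-168519299, plus strand), was at 51.0, 52.41, 51.86 and 51.7 FPKM in the untreated libraries and at 66.94, 72.97, 67.79 and 85.31 FPKM after IFN-γ. The untreated libraries lay close together, the treated ones were all higher and spread more widely, and replicate 4 was the highest. RARS rose by 0.49 on the log2 scale (SE 0.07, limma adjusted p = 0.000542), and by 0.42 without IFN-γ replicate 4. CARS, the cysteinyl-tRNA synthetase (chr11:3000922-3057613, minus strand), was the least abundant cytosolic member at 9.602, 9.863, 9.622 and 9.991 FPKM in untreated cells and 12.26, 12.05, 12.6 and 13.73 FPKM after IFN-γ. Here too every treated library was above every untreated one, by 0.37 on the log2 scale (SE 0.05, limma adjusted p = 0.000505).

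TARS, the threonyl-tRNA synthetase (chr5:33440696-33469539, plus strand), was at 82.91, 83.22, 86.57 and 86.78 FPKM untreated and at 92.03, 92.9, 91.08 and 102.1 FPKM treated. The groups did not overlap, but the log2 change was small at 0.15 (SE 0.04, limma adjusted p = 0.0317), and leaving out any untreated library or IFN-γ replicate 2 ended the call (limma adjusted p up to 0.0932). The TARS call also ended after quantile normalization, where the change was 0.0085 (limma adjusted p = 0.859), in TPM without short RNA genes (0.06) and in limma without a trend (limma adjusted p = 0.0639). VARS, the valyl-tRNA synthetase, lies in the major histocompatibility region at chr6:31777518-31795953 (minus strand). It was at 56.0, 54.18, 53.06 and 51.41 FPKM untreated and at 47.44, 49.75, 50.26 and 48.8 FPKM treated. Every treated library was lower, by -0.13 on the log2 scale (SE 0.04, limma adjusted p = 0.0374), with the opposite sign in TPM (0.68). The VARS call ended when any of replicates 1 to 3 of either group was left out (limma adjusted p up to 0.105), and in limma without a trend.

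EPRS was the most abundant member in untreated cells. It was at 101.8, 104.4, 103.9 and 104.8 FPKM untreated and at 96.79, 97.93, 95.42 and 99.82 FPKM treated. All treated libraries were below all untreated ones, by -0.09 on the log2 scale, but the change missed the threshold (SE 0.03, limma adjusted p = 0.0798). Without IFN-γ replicate 4 it passed at -0.10 (limma adjusted p = 0.00636), and in TPM it had the opposite sign (0.72). The partners of EPRS in the GAIT complex were not called in the full set of libraries: SYNCRIP, an RNA-binding protein, was at 114 and 113 FPKM and GAPDH, the glycolytic enzyme, at 1741 and 1840 FPKM. RPL13A, the ribosomal protein that joins them, was at 967.3, 965.5, 994.6 and 1447 FPKM in the treated libraries against 1061 to 1109 FPKM in the untreated ones. Replicate 4 was thus above the untreated libraries and the other three treated ones below them, with a log2 change of -0.02 with it. Without it RPL13A was called lower at -0.16 (limma adjusted p = 0.00106), and in TPM it had the opposite sign (0.79). Of the 12 genes listed for the GAIT complex, its kinases and its target mRNAs, 1 rose (VEGFA, an angiogenic factor, from 32.7 ± 1.25 to 42.0 ± 1.10 FPKM, SD, n = 4) and none fell (8.33%, against 22.3% of all genes), with a median of 0.04. Without IFN-γ replicate 4, 2 of the 12 were called lower, against 1698 of the 13598 genes tested.

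Of the 10 members of the multi-synthetase complex, 2 rose (KARS and RARS) and none fell (20.0%, against 22.3% of all genes). Without IFN-γ replicate 4, 2 of them (EPRS and QARS) were called lower, against 1698 of the 13598 genes tested. The scaffold genes AIMP1, at 30.5 and 31.2 FPKM, and AIMP2, at 23.1 and 23.5 FPKM, were not called, nor was EEF1E1, which encodes a further scaffold subunit, at 52.2 and 54.3 FPKM. FARSA and FARSB, the paired subunits of cytosolic phenylalanyl-tRNA synthetase, were at 41.3 and 53.6 FPKM untreated and at 40.4 and 52.5 FPKM treated, and neither was called. Of the 11 cytosolic or dual members outside the complex, 2 rose and 1 fell (27.3%), the fall (VARS) with the opposite sign in TPM.

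Of the 15 mitochondrial members, 1 rose and 3 fell (26.7%, near the 22.3% of all genes), and the 3 that fell had the opposite sign in TPM. LARS2, the mitochondrial leucyl-tRNA synthetase (chr3:45388506-45549421, plus strand), was at 8.025, 7.525, 7.682 and 8.281 FPKM untreated and at 11.33, 11.36, 12.29 and 11.88 FPKM treated. The groups were well apart and replicate 4 lay among the other treated libraries. The mean rose from 7.88 ± 0.340 to 11.7 ± 0.463 FPKM (SD, n = 4), 0.57 on the log2 scale (SE 0.05, limma adjusted p = 2.34e-05). LARS, its cytosolic partner, was at 73.2 and 72.9 FPKM and was not called.

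AARS2, the mitochondrial alanyl-tRNA synthetase (chr6:44299654-44313326, minus strand), had the largest fall. It was at 34.53, 32.87, 31.75 and 32.07 FPKM untreated and at 24.15, 24.32, 24.85 and 19.0 FPKM treated. Every treated library was below every untreated one, with replicate 4 the lowest. This was a log2 difference of -0.51 (SE 0.08, limma adjusted p = 0.00112). It was -0.42 without IFN-γ replicate 4 and had the opposite sign in TPM (0.29). Both genes found to have fallen among those within 10 kb of a member lie beside AARS2: TMEM151B, which overlaps it on the opposite strand, fell from 17.3 ± 0.589 to 11.3 ± 1.51 FPKM (SD, n = 4; 0.17 in TPM), and TCTE1, at a distance of 1966 bases, fell from 4.02 ± 0.469 to 2.20 ± 0.271 FPKM (SD, n = 4) but was not called in TPM (-0.06, limma adjusted p = 0.858). The library kit does not mark strand, so reads from AARS2 and TMEM151B where they overlap cannot be told apart.

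RARS2, the mitochondrial arginyl-tRNA synthetase (chr6:87514378-87590003, minus strand), was at 21.26, 20.71, 21.57 and 21.23 FPKM untreated and at 17.91, 19.31, 18.85 and 18.79 FPKM treated. NARS2, the mitochondrial asparaginyl-tRNA synthetase (chr11:78435961-78574874, minus strand), was at 28.65, 29.77, 31.69 and 31.56 FPKM untreated and at 26.53, 25.51, 27.68 and 27.71 FPKM treated. In both genes all treated libraries were below all untreated ones. The log2 change was -0.18 in each (limma adjusted p = 0.00775 for RARS2 and 0.021 for NARS2), and both had the opposite sign in TPM (0.62 in each). The NARS2 call ended on leaving out replicate 3 or 4 of the untreated group, or replicate 1 or 2 of the treated group (limma adjusted p up to 0.0689).

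YARS2, the mitochondrial tyrosyl-tRNA synthetase, was at 15.25, 14.51, 13.74 and 15.13 FPKM untreated and at 16.49, 15.36, 15.73 and 17.72 FPKM treated. The groups did not overlap, but the log2 change of 0.15 missed the threshold (limma adjusted p = 0.0802). DNM1L, a mitochondrial fission gene that overlaps YARS2 on the opposite strand, rose from 46.5 ± 0.457 to 75.1 ± 2.59 FPKM (SD, n = 4), and reads from the shared stretch cannot be assigned to either gene. PARS2, the mitochondrial prolyl-tRNA synthetase, had the lowest level of all members, 2.54 ± 0.305 FPKM untreated and 2.78 ± 0.352 FPKM treated (SD, n = 4). Its values rest on about 86 to 157 fragments a library, and its 95% interval on the log2 scale was -0.14 to 0.38.

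The 27 members that were not called had log2 changes between -0.18 and 0.15. For 26 of them the 95% interval lay within 1.3-fold of no change in either direction, and that of PARS2 reached 1.305-fold. SARS2, the mitochondrial seryl-tRNA synthetase, had the interval that reached lowest, to 0.775-fold. A missed threshold does not show that these genes were unaffected.

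Without IFN-γ replicate 4, 14 members were called (38.9%, against 28.4% of all genes tested), among them all 9 above. The 5 added were all lower: SARS2 at -0.25, QARS, the glutaminyl enzyme gene, at -0.13, EPRS at -0.10, and FARSB and IARS2, the mitochondrial isoleucyl enzyme gene, at -0.09 on the log2 scale. The limma adjusted p for these was between 0.00636 (EPRS) and 0.0258 (SARS2), and in TPM all but SARS2 were called with the opposite sign. Cytosolic members called lower were then 4 and mitochondrial ones 5. Of the 13598 genes tested 1698 were then called lower, in place of 1230 in the full set. Members called lower numbered 2 without untreated replicate 3 and likewise without IFN-γ replicate 1 or 2. Over all genes tested 856, 1051 and 1029 were called lower in these. Every member called in the full set kept its direction without any 1 library.

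**Figure D3:**
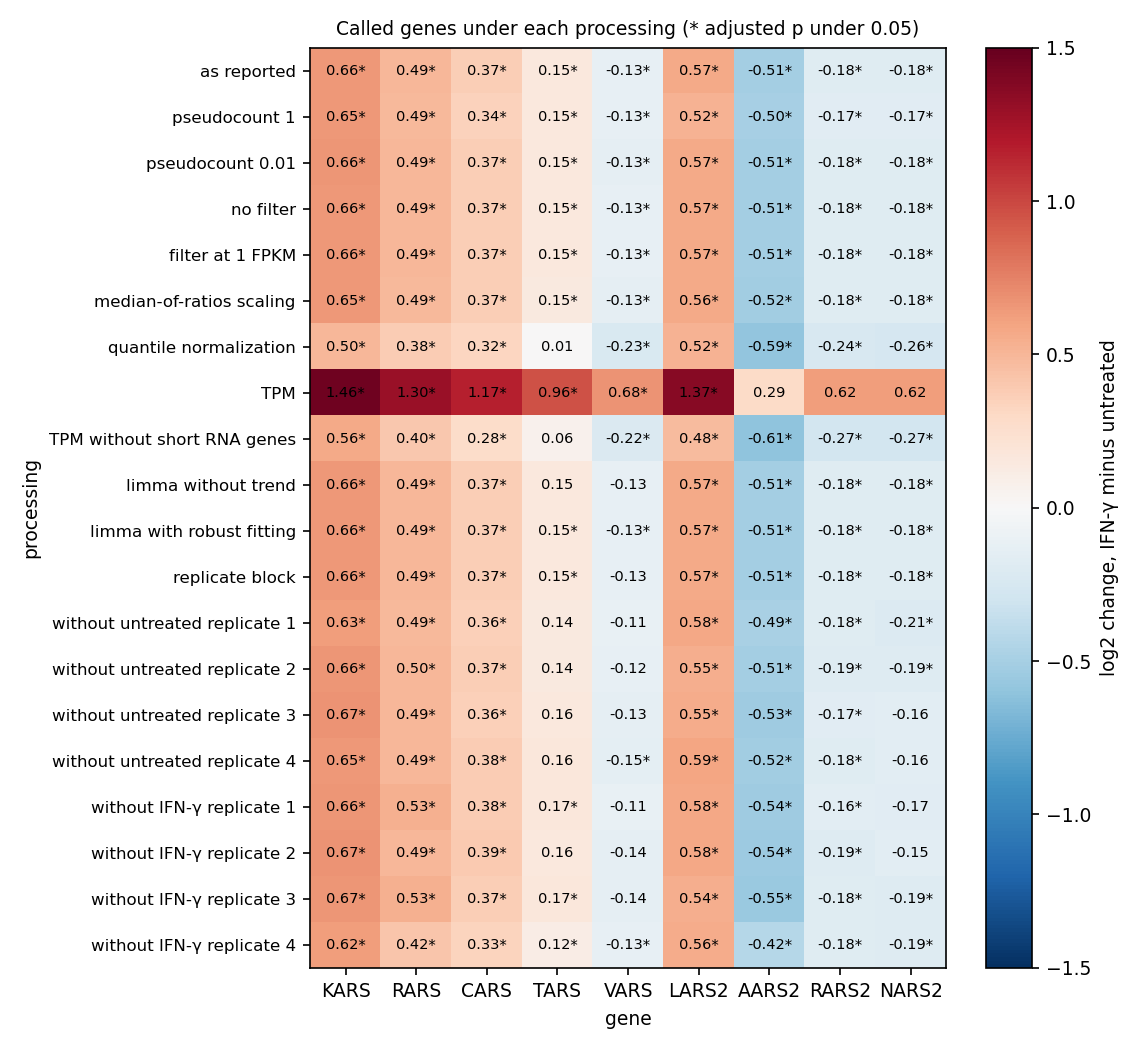
Log2 change of each called member (columns), IFN-γ minus untreated, as reported and under the 19 alternative settings (lines), with colour for the size and an asterisk for an adjusted p under 0.05. KARS, RARS, CARS and LARS2 are called in all 19, and AARS2, RARS2, NARS2 and VARS lie above 0 in TPM.

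For 12 amino acids 1 cytosolic and 1 mitochondrial member share a symbol apart from the ending 2, and these were compared as pairs. In 1 pair both members were called, and in opposite directions: RARS rose and RARS2 fell (0.62 in TPM), and the ratio of their mean FPKM went from 2.44 to 3.91. In 6 pairs 1 member was called, and in 5 neither was. The ratio of LARS to LARS2 went from 9.29 to 6.23 and that of AARS to AARS2 from 1.32 to 1.80. In untreated cells the cytosolic gene was between 0.435 and 10.1 times its partner. CARS was the only one of the 12 below its partner, CARS2, which was at 22.5 and 22.3 FPKM. HARS and HARS2, the histidyl pair, are read head to head from neighbouring starts on chromosome 5 and had like changes of 0.10 each, neither called.

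**Figure D4:**
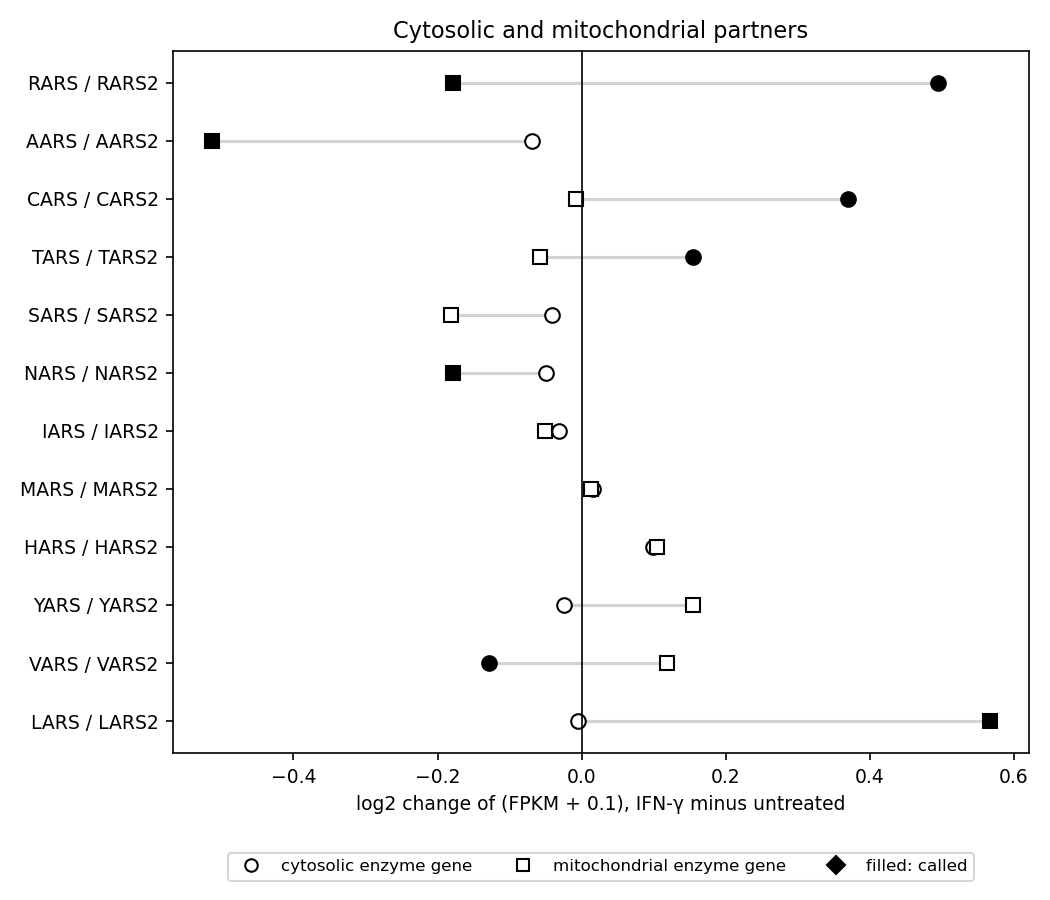
Log2 change of the cytosolic (circles) and mitochondrial (squares) gene of 12 pairs, IFN-γ minus untreated, with filled symbols for members that passed the threshold. RARS and RARS2 lie on opposite sides of 0 and are both filled; the filled symbols below 0 lie above 0 in TPM.

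Summed over the 19 cytosolic and dual enzyme genes, the level was 1061 to 1063 FPKM in untreated libraries and 1093, 1110, 1096 and 1184 FPKM in the treated ones. Every treated library was higher and replicate 4 was the highest. This sum holds KARS, with means of 78.6 and 124 FPKM, and RARS, with 51.7 and 73.3 FPKM. Of the 17 cytosolic members 3 rose and 1 fell, and their median log2 change was -0.03. The 15 mitochondrial genes summed to 268 ± 3.47 FPKM untreated and 257 ± 6.50 FPKM treated (SD, n = 4), with the lowest untreated library at 265.1 and the highest treated one at 264.8 FPKM. WARS alone was at 24.3 ± 0.490 and 722 ± 14.8 FPKM (SD, n = 4). Its share of the summed FPKM of the cytosolic, dual and WARS genes thus went from 2.24% ± 0.046 to 39.2% ± 0.733 (SD, n = 4). WARS2, its mitochondrial partner, was at 5.40 and 5.59 FPKM and was not called.

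Among the 46 genes tested that overlap a member or lie within 10 kb of it, 4 rose and 2 fell (13.0%, against 22.3% of all genes). Those that rose were DNM1L, DDIT3 (a stress-induced transcription factor gene that overlaps MARS on the opposite strand, 0.31 on the log2 scale), SLC35A1 (a nucleotide-sugar transporter gene near RARS2, 0.37) and CALR (the calreticulin gene near FARSA, 0.27). The CALR call ended after quantile normalization (0.12, limma adjusted p = 0.0871). MARS, the methionyl enzyme gene, was at 48.3 and 48.8 FPKM and was not called. Around VARS, LSM2 was not called, and around VARS2, neither were GTF2H4 and DDR1.

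Uncharged transfer RNA activates the kinase GCN2 (EIF2AK4), which phosphorylates eIF2 and raises translation of ATF4, a factor that induces synthetase and amino acid synthesis genes. Of 16 genes for eIF2 kinases and factors, 1 rose and none fell (6.25%, against 22.3% of all genes), with a median of 0.05. That gene was EIF2AK2, the double-stranded RNA-activated kinase PKR, from 30.3 ± 0.476 to 64.3 ± 7.19 FPKM (SD, n = 4), a log2 change of 1.08. EIF2AK4 was at 10.7 and 11.3 FPKM and was not called. Leaving out IFN-γ replicate 4 gave 2 genes of this list called lower, against 1698 of the 13598 genes tested. Of the 8 tested ATF4 and partner genes, 4 rose and none fell (against 13.3% of all genes higher), with a median of 0.27: ATF3 by 1.00, CEBPB by 0.83, JDP2 by 0.43 and DDIT3 by 0.31 on the log2 scale. The DDIT3 call ended when untreated replicate 1, 2 or 3 or treated replicate 1, 2 or 4 was left out (limma adjusted p up to 0.107). It also ended with no filter, after quantile normalization, in TPM without short RNA genes and in limma without a trend (limma adjusted p up to 0.114). ATF4 itself was at 170.9, 167.7, 166.5 and 203.3 FPKM treated against 191.2 to 199.6 FPKM untreated. Its log2 change was -0.15 (limma adjusted p = 0.128) with replicate 4, which was the only treated library above the untreated ones, and -0.22 (limma adjusted p = 8.67e-05) without it, and it had the opposite sign in TPM (0.66).

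Of 23 tested amino acid response genes, none rose and 8 fell (34.8%, against 9.05% of all genes lower and 22.3% called either way), with a median of -0.10, and none was called lower in TPM. The largest falls were those of CTH, which makes cysteine from cystathionine (-0.47), SLC1A4, a transporter of serine and other neutral amino acids (-0.43), and PSPH and PHGDH, enzymes of serine synthesis (-0.27 and -0.26), each with the opposite sign in TPM. The call of CTH ended on leaving out replicate 1 or 4 of the untreated or 1 or 2 of the treated group (limma adjusted p up to 0.062), and that of PSPH on leaving out replicates 2, 3 or 4 of the untreated or 2 or 3 of the treated group (limma adjusted p up to 0.0969), with no filter and in limma without a trend. ASNS, the asparagine synthetase gene, was at 15.1 ± 0.330 and 17.3 ± 2.40 FPKM (SD, n = 4) and was not called (limma adjusted p = 0.142).

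**Figure D5:**
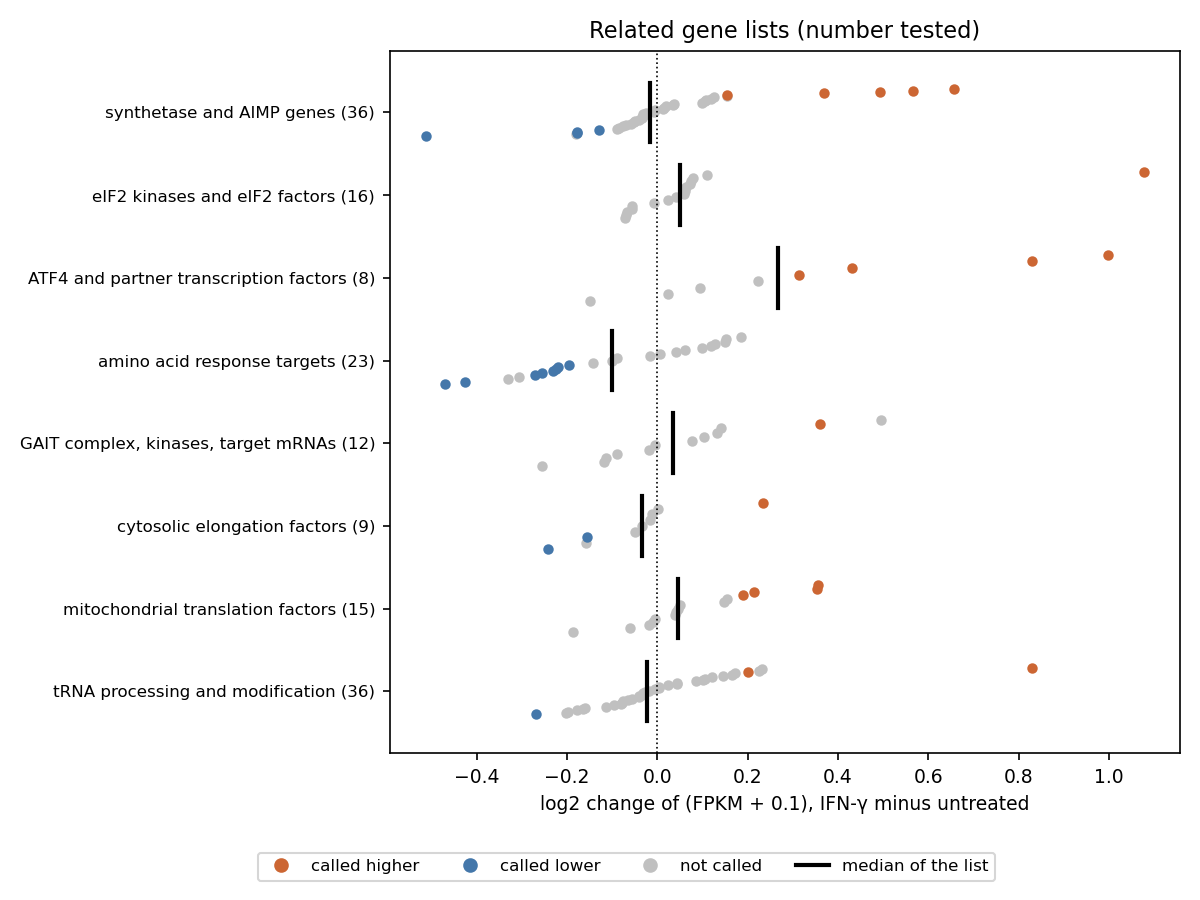
Log2 change of the tested genes of 8 lists, IFN-γ minus untreated on log2(FPKM + 0.1), with the list's median as a bar. The ATF4 partner list has the highest median, 0.27, and the amino acid response list the lowest, -0.10; none of the genes called lower is called lower in TPM.

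Of 15 mitochondrial translation factor genes, 4 rose and none fell (26.7%, against 13.3% of all genes higher and 22.3% called either way, median 0.04): MTIF3, an initiation factor, by 0.36, GFM1, an elongation factor, by 0.35, TSFM, an elongation factor, by 0.21 and QRSL1, a subunit of the enzyme that makes glutaminyl-tRNA in mitochondria, by 0.19 on the log2 scale. Of 9 cytosolic elongation factor genes, 33.3% were called: EIF5A rose by 0.23, and EEFSEC (-0.24) and EEF1A2 (-0.15) fell, both with the opposite sign in TPM. With IFN-γ replicate 4 left out, 6 of these 9 were called lower, against 1698 of the 13598 genes tested. Of 36 genes of transfer RNA processing and modification, SLFN11, a nuclease that cuts transfer RNAs, rose by 0.83 and TRMT5, a methyltransferase, by 0.20, and GTPBP3, a mitochondrial modification enzyme, was at -0.27, with the opposite sign in TPM; 8.33% of this list was called, against 22.3% of all genes, and the median was -0.02. Several of these calls ended when 1 library was left out. For EIF5A these were untreated replicates 2, 3 and 4 (limma adjusted p up to 0.071), for EEFSEC untreated replicates 1, 2 and 4 and treated replicate 3 (limma adjusted p up to 0.0718), and for EEF1A2 untreated replicates 1 to 3 and treated replicates 1 and 2 (limma adjusted p up to 0.0801). For MTIF3 they were untreated replicates 1 and 2 and treated replicates 2 and 3 (limma adjusted p up to 0.0589), for QRSL1 untreated replicates 1, 3 and 4 and treated replicate 1 (limma adjusted p up to 0.081), and for TRMT5 untreated replicates 1, 3 and 4 and treated replicates 1 and 2 (limma adjusted p up to 0.0894). QRSL1 and TRMT5 also lost their calls after quantile normalization (0.14 and 0.16) and in TPM without short RNA genes (0.10 and 0.11), where TSFM lost its call as well (0.12, limma adjusted p = 0.182).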

How the data were processed

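RNA-seq libraries of BE(2)-M17 cells, 4 untreated and 4 after IFN-γ, were grouped by the treatment label and numbered from the sample titles. The growth protocol also names a second line, SH-SY5Y, while every library is labelled M17. FPKM for each gene were deposited, made by the authors with TopHat2, Cuffdiff and hg38 per the submitters' processing notes. Neither the annotation nor any library scaling is given in the sources used here. Per the labels' protocols, ribosomal RNA was depleted.

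From these, log2(FPKM + 0.1) was computed for the 13598 genes whose mean over the 8 libraries reached 0.5 FPKM, and limma 3.58.1 (R 4.3.3, mean-variance trend, two-sided) was fitted once across all of them, with Benjamini-Hochberg adjustment and a threshold of 0.05. A called gene is one past it. Fold changes on this scale understate the change of low genes. Depth was estimated from the steps between low FPKM values, and 1 fragment per kilobase was worth 0.0492 to 0.0718 FPKM. Positions and neighbours within 10 kb came from GENCODE 29. The script was tested on simulated data.

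The members and gene lists were chosen with earlier results of these data known. All called members were named, with uncalled members at the extremes, partners of named members, members without overlap, up to 4 called genes per list, a fixed set of related genes and called neighbours. TERF2IP, SYNCRIP, GAPDH, LSM2, GTF2H4, DDR1 and the marker genes were named after their values were seen. Some genes of the fixed set are not reported here. Alternatives were other pseudocounts (1 and 0.01), filters, scalings, limma settings, a replicate block and leaving out each library.

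Replicate numbers were tested for pairing: same-numbered libraries' deviations from their group means had correlations of -0.027, 0.079, 0.061 and 0.061, all under the 0.1 required, so they were not treated as pairs.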

Additional observations from a re-analysis of the deposited data

Results flagged for a closer look

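In each group of 4 libraries, the highest or lowest value was set against the nearest of the others, and a gap above Dixon's 95% critical share of the group's whole range was marked. Chance marks about 1 in 20 groups, and here 14 of 144 groups (9.72%) were marked, 7 of them among the 72 groups of the members. In 11 of the 14 the library was IFN-γ replicate 4. Among the members it was highest for KARS (132.5 FPKM), TARS (102.1 FPKM), IARS2 (55.84 FPKM) and DARS (42.89 FPKM) and lowest for AARS2 (19.0 FPKM). Among other genes it was highest for RPL13A (1447 FPKM), TAP1 (380.7 FPKM), ATF4 (203.3 FPKM), EEF1E1 (67.91 FPKM) and VEGFA (43.62 FPKM) and lowest for TMEM151B (9.001 FPKM). The remaining 3 were in untreated libraries: TARS2 in replicate 1 was the highest (22.3 FPKM), MARS2 in replicate 4 the lowest (9.501 FPKM), and GBP1 in replicate 3 the highest (0.03972 FPKM). IFN-γ replicate 4 also had the highest depth estimate of the 8 libraries, 20.3 M fragments, and the part of depth in these values was not tested.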

How the results depend on the processing

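KARS, RARS, CARS and LARS2 kept their call and direction in all 19 alternatives. AARS2 and RARS2 kept theirs in all but TPM, which calls neither lower. TPM moved the median of all genes up by 0.79, so a rise kept there is no check on it. Relative to that median KARS was at 0.67, RARS at 0.51, CARS at 0.38 and LARS2 at 0.58. Members called higher numbered 32 in TPM. Members called lower numbered 14 after quantile normalization, 0 in TPM and 11 in TPM without short RNA genes, and between 2 and 9 when single libraries were left out. Members without overlap that were lower numbered 14, 0 and 17 under those scalings and 5 to 11 without single libraries. The matching shares of all genes are not given here, so these counts are not read as a result about the members. Over all genes, 9442 were called higher in TPM and 1143 in TPM without short RNA genes. Called lower were 2564 after quantile normalization, 20 in TPM, 1778 in TPM without short RNA genes and 854 to 1698 without single libraries. The median of all genes moved to 0.79 in TPM, -0.07 after quantile normalization and -0.10 in TPM without short RNA genes. The library totals that TPM makes equal were 1256812, 1433357, 633862 and 1330601 FPKM in untreated replicates 1 to 4. They were 591795, 598516, 603942 and 760353 FPKM in IFN-γ replicates 1 to 4. The cause of these differences was not tested.

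In TPM the log2 change had the opposite sign for VARS (0.68), AARS2 (0.29), NARS2 (0.62), RARS2 (0.62), EPRS (0.72), IARS (0.77), SARS (0.76), LARS (0.80), GARS (0.77), FARSB (0.77), IARS2 (0.75), YARS (0.78), AARS (0.74), FARSA (0.77), NARS (0.75), QARS (0.73), CARS2 (0.80), TARS2 (0.74) and EARS2 (0.71), and for SARS2 (0.61), which was not called in TPM. Of other genes the opposite sign held for CTH (0.31), SLC1A4 (0.36), PSPH (0.52), PHGDH (0.55), EEFSEC (0.56), EEF1A2 (0.65), GTPBP3 (0.53), ATF4 (0.66), RPL13A (0.79) and TMEM151B (0.17). Among these CTH, SLC1A4, PHGDH, EEFSEC, GTPBP3 and TMEM151B were not called in TPM (limma adjusted p from 0.0968 to 0.595).

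With the replicate number as a block, 8 members were called, all among the 9, and VARS was lost, as were PSPH, EEF1A2, QRSL1 and TRMT5 among the other genes named; over all genes 2656 were called in place of 3039. Of 4 untreated libraries 2 correlated best with their own number and the others with another number. No correlation was above 0.086, so this is not read as pairing. PARS2 rests on the fewest fragments of any member.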
